A study of Mus musculus with 24 samples.

Results

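CD8 T cells carrying the Cat-Tg transgene were compared after and before an allogeneic transplant, by RNA-seq of 6 libraries out of the 24 of the series. The members were the 3 libraries labelled Cat-Tg CD8 post-tx and the 3 labelled Cat-Tg CD8 pre-tx, chosen by their labels and not by any measured value. Cat-Tg is a human β-catenin that lacks its first 87 residues and so escapes the degradation that phosphorylation at the N terminus starts. It is driven in thymocytes and T cells by the p1017 vector (proximal Lck promoter), was made on FVB and back-crossed to C57BL/6, and the mice were heterozygous and 8-12 weeks old. Pre-tx cells were sorted from fresh spleens of Cat-Tg mice. For post-tx cells, lethally irradiated BALB/c mice received WT T cell-depleted bone marrow together with Cat-Tg CD4+ and CD8+ T cells in equal numbers, and donor H-2Kb+ CD8+ cells were sorted from the spleen on day 7. Each library came from 1 mouse, the pre-tx and post-tx mice were different animals, and both subsets were sorted from each mouse. The Cat-Tg CD4 libraries (3 pre-tx, 3 post-tx) and the WT CD8 libraries (3 pre-tx, 3 post-tx) served for comparison, the latter from C57BL/6 T cells without the transgene.

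When a naive CD8 T cell meets foreign MHC class I molecules on host cells, it leaves quiescence, divides many times and becomes an effector cell that kills through perforin and granzymes and secretes interferon-γ. Alongside, it gives up the lymph node homing receptor CCR7 and the IL-7 receptor that keep naive cells circulating and alive, and gains receptors for inflamed tissue and the inhibitory receptors that restrain it. β-catenin binds the transcription factors TCF-1 and LEF-1, which are abundant in naive and memory T cells and fall in effector cells. The pre-tx cells were not all naive. By flow cytometry, the paper reports fewer naive and more central memory CD8 cells in Cat-Tg than in WT mice. It also reports higher CD44, CD122 and Eomes in the Cat-Tg cells.

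The 6 libraries held 22263193, 22805478 and 32547247 estimated counts pre-tx and 38167840, 36882033 and 38523990 post-tx, so the post-tx levels rested on more reads. Spearman's correlation over genes was 0.912 to 0.919 between pre-tx libraries, 0.946 to 0.968 between post-tx libraries and 0.796 to 0.844 across the groups. Of 15967 genes tested, 1389 were higher post-tx (8.7%) and 834 lower (5.22%), 13.9% in all, at an adjusted p of at most 0.05 and a fold change of at least 2 (edgeR). The number called changed when 1 library was left out, which also leaves fewer samples: it was 974 without post-tx 2 and 1118 without post-tx 1. It was 1341 without pre-tx 1, 1172 without pre-tx 2 and 1192 without pre-tx 3. Without post-tx 3 it was 2545, with 1154 higher and 1391 lower. DESeq2 called 1932 higher and 2323 lower, so the balance of rises and falls (62.5% of calls higher in edgeR, 45.4% in DESeq2) depended on the tool. The 3 values of one group lay wholly above those of the other in 49.2% of tested genes, in 1385 of the 1389 higher genes and in 818 of the 834 lower ones. The median log2 fold change over all tested genes was -0.26. Below, higher, lower, rose and fell are used of genes that passed this rule, CPM are counts scaled to a common library size after TMM, and values are given in the order of replicates 1, 2 and 3.

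**Figure D1:**
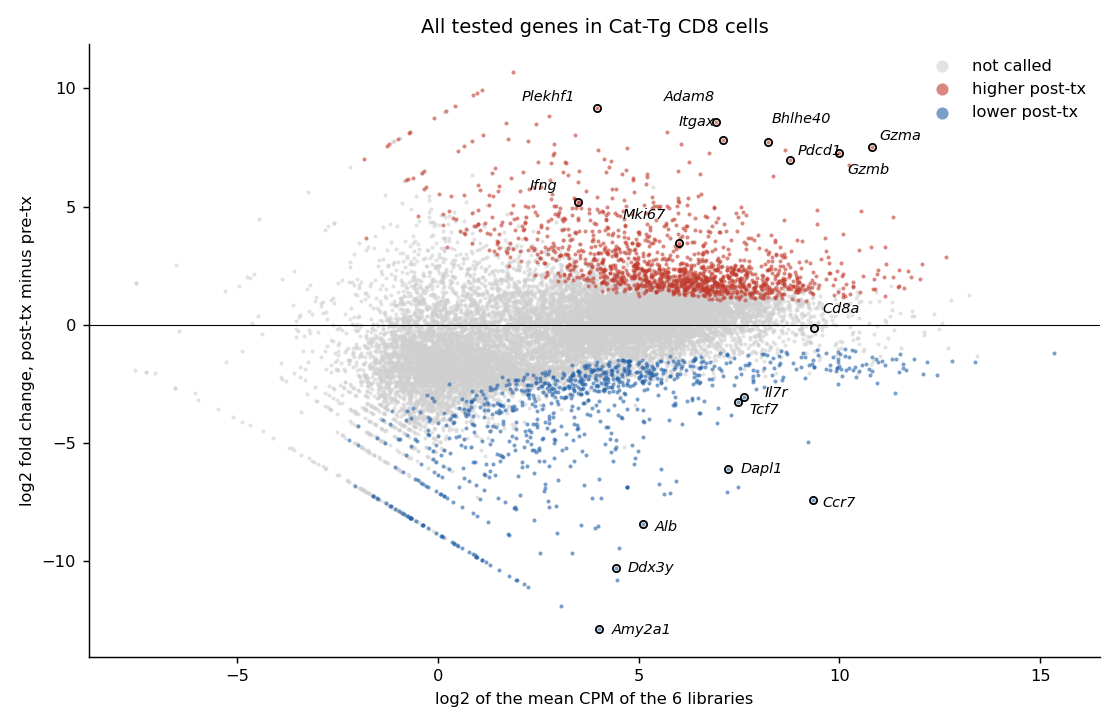
Log2 fold change post-tx minus pre-tx (vertical axis) of each of the 15967 tested genes against the log2 of its mean CPM over the 6 libraries (horizontal axis), with called genes in red (1389 higher) and blue (834 lower). Ringed genes are named in the text. Gzma, Gzmb and Pdcd1 lie at the top among abundant genes, Ccr7 and Dapl1 at the bottom, and Cd8a near 0.

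Both chains of CD8 were abundant in all 6 libraries, as the labels require. Cd8a, the CD8α chain, had 833, 481 and 766 CPM pre-tx and 586, 645 and 683 CPM post-tx (log2 fold change -0.12 ± 0.35 SE, adjusted p = 0.825). Cd8b1, the CD8β chain, had 2229, 1481 and 2252 CPM pre-tx and 1815, 1974 and 1961 CPM post-tx (log2 fold change -0.052 ± 0.30 SE, adjusted p = 0.911), and the groups overlapped for both chains. None of the 7 CD8 T cell identity genes was called by edgeR, DESeq2 or limma-voom, and 1 of them had an unadjusted p under 0.05 in edgeR. Cd4 stood at 0.952, 3.55 and 0.576 CPM pre-tx and 0.957, 4.51 and 3.39 CPM post-tx, so CD4 T cell transcripts were scarce on both sides. Among CD4 identity genes, Zbtb7b, which directs CD4 lineage choice in the thymus, rose (1.86, 1.83 and 0.160 CPM pre-tx and 13.7, 21.8 and 18.04 CPM post-tx; log2 fold change 3.80 ± 0.85, adjusted p = 0.00913). Foxp3, the regulatory T cell factor, had 0.816, 1.01 and 8.04 CPM pre-tx and 26.1, 26.3 and 45.2 CPM post-tx and an adjusted p of 0.0474, a call lost without any post-tx library or without pre-tx 1 or 2 (adjusted p up to 0.162).

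Transcripts of other cells differed between the groups, and over all tested genes 8.7% were higher and 5.22% lower. B cell transcripts summed to 2735, 1191 and 2094 CPM pre-tx and 834, 785 and 831 CPM post-tx, and 11 of 14 B cell genes fell, among them Ms4a1 (52.4, 31.9 and 19.4 CPM pre-tx and 0.479, 1.04 and 1.604 CPM post-tx). Pancreatic acinar transcripts summed to 520.5, 479.8 and 533 CPM pre-tx and 13.9, 18.5 and 31.4 post-tx, with 10 of 11 genes lower (7 to 10 without 1 library). Liver plasma protein transcripts, such as albumin (Alb, 105, 77.9 and 23.3 CPM pre-tx and 0.0299, 0.292 and 0.272 CPM post-tx), fell for 8 of 10 genes, and for 3 without post-tx 1 or 2. Of 13 tested macrophage and monocyte genes, C1qa, C1qb, C1qc, Cd68 and Mrc1 rose and Lyz2 and Ctss fell, but without 1 library 1 to 4 rose. No call was made for C1qa without pre-tx 2 or 3 or post-tx 2 (adjusted p up to 0.0776), C1qb without pre-tx 3 (adjusted p up to 0.0585), C1qc without any pre-tx library or post-tx 2 or 3 (adjusted p up to 0.118), Mrc1 without any pre-tx library or post-tx 1 or 2 (adjusted p up to 0.187), Lyz2 without pre-tx 1 or 2 or post-tx 1 or 2 (adjusted p up to 0.0874) and Ctss without pre-tx 1 or post-tx 1 (adjusted p up to 0.0856). Adgre1, the macrophage receptor F4/80, had 0.136, 1.40 and 5.03 CPM pre-tx and 4.34, 5.75 and 5.39 CPM post-tx (adjusted p = 0.35). Camp, S100a8 and S100a9 fell among 10 neutrophil genes, all 10 of which had negative log2 fold changes (median -2.1), and at most 1 fell without post-tx 1 or 2 or pre-tx 1 or 2 but 4 or 5 without post-tx 3 or pre-tx 3. Neutrophil transcripts were scarcer in pre-tx 3 than in the other pre-tx libraries (3089, 2431 and 309 CPM pre-tx, 278, 458 and 719 post-tx), and erythroid transcripts likewise (11314, 6525 and 1581 CPM pre-tx, 2742, 3919 and 4206 post-tx). No erythroid gene was called by edgeR (1 of 10 at an unadjusted p under 0.05, 1 by DESeq2). In bulk libraries fewer cells of a type and less RNA per cell cannot be told apart, and the part of these other cells in the results below was not tested.

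Transcripts of the Y chromosome also separated the groups. Ddx3y, an RNA helicase gene of the Y chromosome, had 30.3, 54.0 and 45.0 CPM pre-tx and 0.0598, 0 and 0.0303 CPM post-tx, at least 443-fold lower, and Eif2s3y had 32.7, 59.4 and 44.6 CPM pre-tx and 0.0598, 0.0325 and 0.0908 CPM post-tx, at least 468-fold lower. Both bounds set the group's floor of 3 counts per library against the pre-tx mean. Kdm5d and Uty fell as well, with log2 fold changes of -2.86 and -4.22. The threshold was missed for Kdm5d without pre-tx 2 or post-tx 1 or 2 (adjusted p up to 0.0626). The 4 male transcripts summed to 122, 200.2 and 138 CPM pre-tx and 3.53, 2.24 and 15.8 CPM post-tx, and the sex of the donors and the transplant cannot be told apart for any gene that sex affects.

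**Figure D2:**
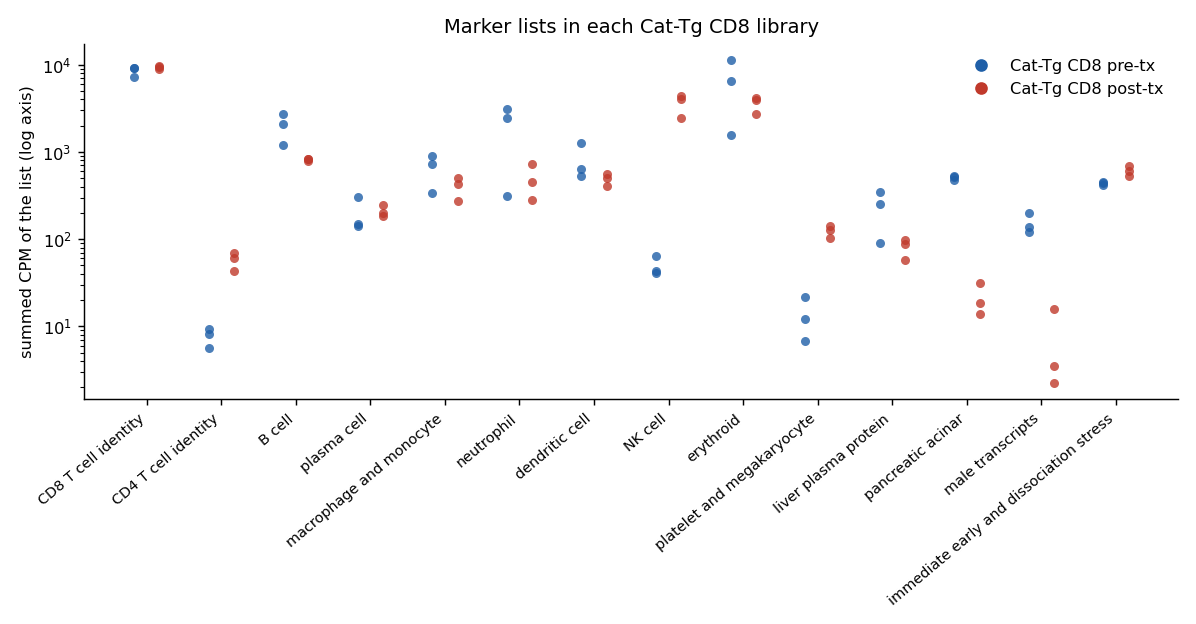
Summed CPM (vertical log axis) of 14 marker gene lists in each of the 3 pre-tx (blue) and 3 post-tx (red) Cat-Tg CD8 libraries, 1 point per library. The CD8 identity sums overlapped, whereas pancreatic acinar and male transcripts were lower in every post-tx library than in any pre-tx library. The NK cell and dendritic cell sums contain Gzma and Itgax, which are described with the T cell genes. The platelet sum contains Itgb3 (log2 fold change 5.035), the 1 gene that rose among 4 tested on that list, of which 1 fell. Over all tested genes, 8.7% rose and 5.22% fell. The source of the Itgb3 transcripts was not tested.

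The best-known genes of naive and central memory T cells were among the falls. Ccr7, the chemokine receptor that brings T cells into lymph nodes, had 1489, 914 and 1446 CPM pre-tx and 8.26, 3.99 and 10.6 CPM post-tx. Every post-tx library lay below every pre-tx library (log2 fold change -7.40 ± 0.64 SE, adjusted p = 7.77e-06). Il7r, the IL-7 receptor α chain needed for survival of resting T cells, had 367, 394 and 295 CPM pre-tx and 51.1, 37.8 and 39.6 CPM post-tx (log2 fold change -3.04 ± 0.46 SE, adjusted p = 0.000709).

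Of the 28 genes on the naive and central memory list, all tested, 13 fell and the other 15 were not called, against 5.22% lower among all tested genes, and the median log2 fold change was -1.3. Igfbp4 and Dapl1, which mark naive T cells, were next to Ccr7 in size. Igfbp4 had 378, 362 and 319 CPM pre-tx and 2.69, 1.43 and 5.05 CPM post-tx, and Dapl1 had 292, 251 and 346 CPM pre-tx and 6.10, 3.73 and 3.30 CPM post-tx. Their log2 fold changes were -6.85 ± 0.62 and -6.08 ± 0.62. Tcf7, which encodes TCF-1, had 396, 247 and 322 CPM pre-tx and 31.4, 37.8 and 29.9 CPM post-tx (log2 fold change -3.28 ± 0.46 SE, adjusted p = 0.000333). Lef1 had 354, 287 and 327 CPM pre-tx and 91.0, 113 and 90.8 CPM post-tx (log2 fold change -1.72 ± 0.35 SE, adjusted p = 0.00484), so both DNA-binding partners of β-catenin fell. The receptor chains of IL-6, Il6ra (-4.08) and Il6st (-3.17), fell together. Bcl2, which protects resting cells from apoptosis, overlapped between the groups (94.2, 62.3 and 81.6 CPM pre-tx and 80.4, 47.7 and 46.4 CPM post-tx, adjusted p = 0.467). Without any single library 12 or 13 of the list fell.

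**Figure D3:**
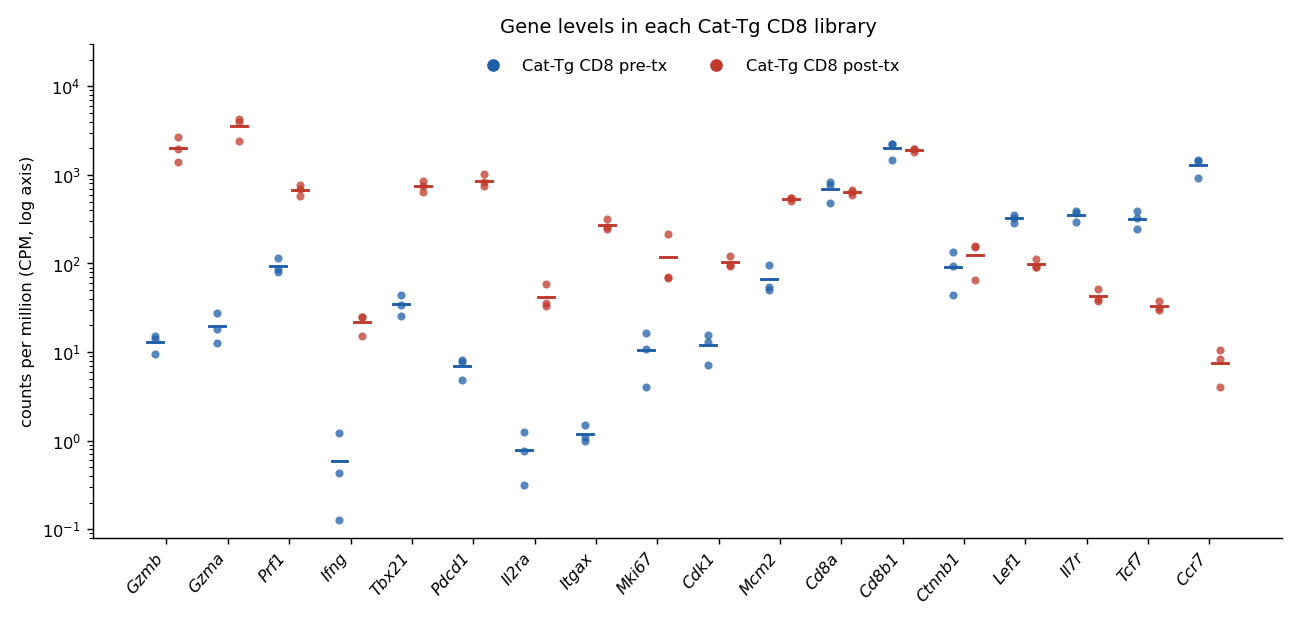
CPM (vertical log axis) of 18 genes in the 3 pre-tx (blue) and 3 post-tx (red) Cat-Tg CD8 libraries, with 1 point per library and a bar at the group mean. Effector, cell cycle and inhibitory receptor genes on the left sit higher post-tx without overlap, Cd8a, Cd8b1 and Ctnnb1 overlap, and Lef1, Il7r, Tcf7 and Ccr7 sit lower post-tx.

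Most genes of the cytotoxic list rose. Gzmb, which encodes granzyme B, had 15.3, 14.2 and 9.51 CPM pre-tx and 1403, 2709 and 1964 CPM post-tx, and the groups were far apart (log2 fold change 7.29 ± 0.72 SE, adjusted p = 2.31e-05). Gzma, encoding granzyme A, had 27.5, 18.3 and 12.6 CPM pre-tx and 2405, 4318 and 3952 CPM post-tx (log2 fold change 7.51 ± 0.91 SE, adjusted p = 0.000134). Gzmk and Gzmc, encoding granzymes K and C, rose from low levels. Gzmk had 33.5, 29.3 and 42.3 CPM pre-tx and 266, 425 and 426 CPM post-tx (log2 fold change 3.41 ± 0.47 SE, adjusted p = 0.000332). Gzmc had 1.86, 0.0390 and 0.0640 CPM pre-tx and 6.40, 13.5 and 13.9 CPM post-tx (log2 fold change 4.13 ± 1.15 SE, adjusted p = 0.0283). Prf1, the pore-forming perforin through which granzymes enter the target cell, had 114, 85.6 and 80.3 CPM pre-tx and 582, 686 and 773 CPM post-tx (log2 fold change 2.87 ± 0.49 SE, adjusted p = 0.0017). In all, 15 of 21 tested genes of the cytotoxic list rose and the other 6 were not called, against 8.7% higher among all tested genes, with a median log2 fold change of 2.32. The number was 10 without pre-tx 2 and 15 at most. The call was lost for Gzmc without pre-tx 2 or 3 or post-tx 2 (adjusted p up to 0.0857).

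Of the cytokine and chemokine genes, 7 rose and 2 fell among 16 tested, against 8.7% and 5.22% of all tested genes. Ifng, the effector cytokine interferon-γ, had 1.22, 0.429 and 0.128 CPM pre-tx and 24.98, 25.2 and 15.4 CPM post-tx (log2 fold change 5.22 ± 0.89 SE, adjusted p = 0.00169). Csf1, a growth factor for macrophages, went from 0.0906, 0.546 and 0.224 CPM to 58.6, 56.0 and 40.6 CPM (log2 fold change 7.46 ± 1.14 SE, adjusted p = 0.000766), one of the 10 largest rises among called protein-coding genes above 20 CPM post-tx. The chemokine Ccl3 had 0.181, 0.702 and 0.640 CPM pre-tx and 20.9, 15.2 and 11.8 CPM post-tx (log2 fold change 4.94 ± 0.73 SE, adjusted p = 0.000565). Ccl5, stored in memory T cells already before activation, had 447, 339 and 511 CPM pre-tx and 1377, 1489 and 1322 CPM post-tx (log2 fold change 1.69 ± 0.40 SE, adjusted p = 0.0116). Ltb, the lymphotoxin β chain that shapes lymphoid tissue, fell (1776, 1447 and 2082 CPM pre-tx and 399, 371 and 402 CPM post-tx; log2 fold change -2.18 ± 0.40 SE, adjusted p = 0.0026), and so did the chemokine Xcl1 (12.1, 9.17 and 9.28 CPM pre-tx and 4.52, 1.33 and 1.88 CPM post-tx, adjusted p = 0.0491). Tnf was low on both sides with overlap (4.99, 5.66 and 0.0960 CPM pre-tx and 1.08, 2.73 and 0.303 CPM post-tx, adjusted p = 0.406), and Il2 did not pass the filter on low counts. Some of these calls did not hold with 1 library left out. The call was lost for Ccl5 without pre-tx 2 (adjusted p up to 0.0544) and Xcl1 without any pre-tx library or post-tx 2 or 3 (adjusted p up to 0.183).

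Most transcription factors of effector and memory cells rose: 20 of 33 on the list did, against 8.7% of all tested genes. The other 13 were not called, and the median log2 fold change was 1.74. Bhlhe40, which sustains cytokine output in activated T cells, had 4.90, 2.30 and 1.15 CPM pre-tx and 626, 657 and 489 CPM post-tx (log2 fold change 7.74 ± 0.64 SE, adjusted p = 4.7e-06). Zbtb32, a repressor induced by activation, had 0.635, 1.01 and 2.50 CPM pre-tx and 209, 217 and 217 CPM post-tx (log2 fold change 7.26 ± 0.74 SE, adjusted p = 3.37e-05). Tbx21, which encodes T-bet, the main driver of the cytotoxic and interferon-γ programme, had 44.2, 33.6 and 25.8 CPM pre-tx and 643, 857 and 752 CPM post-tx (log2 fold change 4.44 ± 0.56 SE, adjusted p = 0.000161). Prdm1, encoding Blimp-1, a factor of terminal effector cells, had 1.13, 0.351 and 1.12 CPM pre-tx and 36.3, 24.4 and 18.3 CPM post-tx (log2 fold change 4.92 ± 0.82 SE, adjusted p = 0.00143). Eomes, the relative of T-bet that is linked to memory, rose less (19.4, 16.3 and 14.5 CPM pre-tx and 42.6, 66.0 and 64.0 CPM post-tx; log2 fold change 1.78 ± 0.47 SE, adjusted p = 0.0214), and the call was lost for Eomes without any pre-tx library or post-tx 2 (adjusted p up to 0.0846). It was also lost under both settings with offsets for transcript length and GC content (log2 fold change down to 0.75, adjusted p up to 0.349). Zeb2 was low and overlapped (3.44, 10.9 and 3.11 CPM pre-tx and 8.44, 0.811 and 5.69 CPM post-tx, adjusted p = 0.847). Without 1 library, 15 to 19 of the list rose.

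Several inhibitory receptors rose. Pdcd1, encoding PD-1, had 8.204, 7.68 and 4.802 CPM pre-tx and 750.2, 822 and 1013 CPM post-tx, with every post-tx library far above every pre-tx one (log2 fold change 6.97 ± 0.46 SE, adjusted p = 7.1e-07). Havcr2, encoding TIM-3, had 1.59, 1.48 and 0.416 CPM pre-tx and 97.2, 81.2 and 34.7 CPM post-tx (log2 fold change 5.94 ± 0.79 SE, adjusted p = 0.000265), and Lag3 had 3.94, 1.64 and 3.30 CPM pre-tx and 100.4, 124 and 146 CPM post-tx (log2 fold change 5.38 ± 0.68 SE, adjusted p = 0.000166). Ctla4 was separated between the groups (14.7, 8.11 and 12.7 CPM pre-tx and 34.6, 39.6 and 21.3 CPM post-tx) without passing the test (log2 fold change 1.43 ± 0.76 SE, adjusted p = 0.193). Of 27 inhibitory and costimulatory receptor genes, 11 rose, against 8.7% of all tested genes, and the other 16 were not called (median 1.43). Without any single library, 10 or 11 rose.

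Receptor chains for cytokines moved both ways, with 10 higher and 6 lower among 25, against 8.7% and 5.22% of all tested genes. Il2ra, the IL-2 receptor α chain (CD25) that gives high affinity for IL-2, had 0.771, 1.25 and 0.320 CPM pre-tx and 58.0, 35.5 and 33.1 CPM post-tx (log2 fold change 5.76 ± 0.73 SE, adjusted p = 0.000162). Il2rb, the β chain shared by the IL-2 and IL-15 receptors, had 285, 315 and 265 CPM pre-tx and 2456, 2537 and 2699 CPM post-tx (log2 fold change 3.15 ± 0.52 SE, adjusted p = 0.00139). Both chains of the IL-12 receptor rose: Il12rb2 had 0.680, 0.819 and 1.15 CPM pre-tx and 99.1, 63.2 and 58.6 CPM post-tx (log2 fold change 6.37 ± 1.05 SE, adjusted p = 0.0013) and Il12rb1 had 18.4, 8.23 and 9.06 CPM pre-tx and 184, 195 and 265 CPM post-tx (log2 fold change 4.18 ± 0.83 SE, adjusted p = 0.00447). Il18r1 was separated but not called (22.8, 23.3 and 23.7 CPM pre-tx and 67.9, 56.3 and 38.6 CPM post-tx, adjusted p = 0.0917). On the side of the falls, Ifngr2, the signalling chain of the interferon-γ receptor, had 57.9, 49.9 and 78.0 CPM pre-tx and 1.11, 1.14 and 2.36 CPM post-tx (log2 fold change -5.33 ± 0.61 SE, adjusted p = 7.68e-05). Il7r, Il6ra and Il6st, given above, were 3 more of the 6 falls. Without 1 library, 7 to 10 of the list rose and 4 or 5 fell.

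Genes of trafficking and adhesion changed in both directions. Itgax, the integrin αX chain (CD11c), which is best known from dendritic cells and is also found on activated CD8 T cells, had 0.997, 1.52 and 1.09 CPM pre-tx and 247, 315 and 256 CPM post-tx (log2 fold change 7.82 ± 0.59 SE, adjusted p = 2.01e-06). Of the 10 genes on the dendritic cell list, Itgax was the 1 that rose, against 8.7% of all tested genes, and 6 were not called. The 3 that fell, against 5.22% of all tested genes, were Flt3, H2-Aa and H2-Ab1 (-3.78, -3.10 and -2.22). Clec9a, not called, had at most 1 count in each of the 6 libraries. In all, 3 of the 10 had positive log2 fold changes. Every post-tx library lay above every pre-tx library for 2 of the 10, and for 3940 of all 15967 tested genes. The source of the Itgax transcripts was not tested. No call was made for Flt3 without pre-tx 1 or 2 or post-tx 1 or 2 (adjusted p up to 0.0827) and H2-Ab1 without post-tx 1 or 2 (adjusted p up to 0.0601). Cx3cr1, the fractalkine receptor of cytotoxic effector cells, had 0.589, 1.13 and 0.224 CPM pre-tx and 151, 139.6 and 104 CPM post-tx (log2 fold change 7.67 ± 0.76 SE, adjusted p = 2.31e-05). Cxcr3, the receptor for chemokines that interferon-γ induces, had 85.0, 80.9 and 67.97 CPM pre-tx and 553, 541 and 590.0 CPM post-tx (log2 fold change 2.85 ± 0.52 SE, adjusted p = 0.00282). Itgal, the αL chain of LFA-1, had 272, 138 and 187 CPM pre-tx and 1379, 1623 and 1418 CPM post-tx (log2 fold change 2.89 ± 0.47 SE, adjusted p = 0.0012).

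Itga4, the α4 integrin chain, rose (48.4, 42.4 and 42.4 CPM pre-tx and 257, 122 and 122 CPM post-tx; log2 fold change 1.91 ± 0.42 SE, adjusted p = 0.00824), although the call was lost for Itga4 without post-tx 1 (adjusted p up to 0.0569). Its partner Itgb7 was separated but just outside the threshold (1305, 1132 and 1157 CPM pre-tx and 3456, 3587 and 4294 CPM post-tx, adjusted p = 0.0544). Itgae, the αE chain that pairs with β7 to hold T cells in epithelia, fell (82.2, 52.6 and 65.7 CPM pre-tx and 3.47, 4.61 and 3.42 CPM post-tx; log2 fold change -4.12 ± 0.79 SE, adjusted p = 0.00376). Of 32 genes on the trafficking list, 15 rose and 5 fell, against 8.7% and 5.22% of all tested genes, with a median of 1.68. The number of rises was 7 without post-tx 1, 8 without pre-tx 1 or 2, 9 without post-tx 2 or pre-tx 3 and 13 without post-tx 3, while the 5 falls were 5 each time.

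Among NK receptor genes that T cells can express, 4 of 18 rose and 1 fell, against 8.7% and 5.22% of all tested genes. Klrg1, a marker of short-lived effector cells, had 5.89, 8.11 and 3.11 CPM pre-tx and 142, 126 and 175 CPM post-tx (log2 fold change 4.69 ± 0.66 SE, adjusted p = 0.000401). Klrc1 (NKG2A) had 30.9, 21.0 and 27.02 CPM pre-tx and 176, 162 and 196 CPM post-tx (log2 fold change 2.76 ± 0.78 SE, adjusted p = 0.0296) and Fcer1g, a signalling adaptor, had 8.57, 18.7 and 4.39 CPM pre-tx and 43.4, 63.1 and 62.3 CPM post-tx (log2 fold change 2.41 ± 0.61 SE, adjusted p = 0.0181). The threshold was missed for Klrc1 without each library in turn (adjusted p up to 0.115) and Fcer1g without pre-tx 1 or 3 or post-tx 2 (adjusted p up to 0.0732). Klrd1, the CD94 chain that pairs with NKG2A, was lower in each post-tx library without passing the test (309, 391.5 and 239 CPM pre-tx and 69.4, 175 and 188 CPM post-tx, adjusted p = 0.226), and Klrk1 (NKG2D) was higher without passing it (36.2, 37.3 and 23.6 CPM pre-tx and 181, 90.8 and 75 CPM post-tx, adjusted p = 0.129). The direction for Klrd1 depended on the processing, with log2 fold changes of -1.404 to 1.289 over all settings and -1.404 to -0.786 with 1 library left out. The NK cell gene Ncr1 overlapped (0.0453, 2.50 and 4.99 CPM pre-tx and 15.3, 4.67 and 12.95 CPM post-tx, adjusted p = 0.148).

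Of 32 genes of the TCR complex and its proximal signalling, 4 rose and the other 28 were not called, against 8.7% higher over all tested genes, with a median of 0.48 (-0.047 with length and GC offsets). The largest rises were those of Ubash3b and Cblb, both negative regulators of TCR signalling, and of the kinase Fyn. Ubash3b had 28.6, 20.9 and 25.7 CPM pre-tx and 97.1, 143 and 68.9 CPM post-tx (log2 fold change 2.04 ± 0.44 SE, adjusted p = 0.00761). Cblb had 33.2, 22.2 and 21.4 CPM pre-tx and 82.6, 123.1 and 63.7 CPM post-tx (log2 fold change 1.81 ± 0.48 SE, adjusted p = 0.0218). Fyn had 33.2, 21.0 and 31.9 CPM pre-tx and 107, 103 and 64.4 CPM post-tx (log2 fold change 1.67 ± 0.48 SE, adjusted p = 0.0326). The call was lost for Cblb without pre-tx 2 or 3 or post-tx 1 or 2 (adjusted p up to 0.108) and Fyn without any pre-tx library or post-tx 1 or 2 (adjusted p up to 0.123), and the list's count was 1 without post-tx 1 or 2 or pre-tx 2 or 3, 3 without pre-tx 1 and 5 without post-tx 3. Zap70 and Cd3e were separated without passing the test (adjusted p = 0.053 and 0.0834), and Lck, the kinase whose promoter drives the transgene in the thymus, had 2883, 1732 and 2634 CPM pre-tx and 3173, 3272 and 3749 CPM post-tx (adjusted p = 0.398).

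Ptprc, which encodes CD45, showed a shift between transcripts. Naive T cells splice in the variable exons A, B and C (exons 4, 5 and 6, of 129, 147 and 141 bases) more often than activated cells, whose short form CD45RO lacks them. Ptprc-207, the transcript of 33 exons that holds all 3 variable exons, made up 17.1%, 13.6% and 15.4% of the gene's TPM pre-tx and 7.12%, 6.57% and 4.62% post-tx. Ptprc-203, the transcript of 30 exons with none of them, made up 37.6%, 44.8% and 40.6% pre-tx and 47.8%, 48.4% and 52.7% post-tx. Among the 3 transcripts of at least 29 exons, the share with variable exons was 31.3%, 22.8% and 27.3% pre-tx and 12.8%, 11.7% and 7.86% post-tx, and by estimated counts 33.1%, 24.2% and 29% against 13.7%, 12.6% and 8.47%. Ptprc-213, a short transcript of 8 exons that holds exon B, overlapped between the groups, at 36.3%, 33.5% and 34.6% of the gene's TPM pre-tx and 35.3%, 36.8% and 34.7% post-tx. The groups did not overlap for Ptprc-207 and Ptprc-203, these shares were estimated from short reads, and no test was run on them. B cell transcripts were also lower post-tx (sums of 2735, 1191 and 2094 CPM pre-tx and 834, 785 and 831 CPM post-tx). Their part in the shift between Ptprc transcripts was not tested. For Pkm, whose PKM1 and PKM2 forms differ by 1 exon, the main transcript Pkm-201 averaged 95.3% pre-tx and 95.8% post-tx.

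Cell cycle genes had the highest share of rises among the lists. Of 48 genes of G2/M and mitosis, 35 rose and the other 13 were not called, with a median log2 fold change of 3.44, the highest of the 22 functional lists. Of 45 genes of G1/S and DNA replication, 35 rose and the other 10 were not called, with a median of 2.49. Among all tested genes 8.7% rose. The counts were 31 to 34 and 29 to 33 when 1 library was left out.

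Promoters of these genes are shown because members of both lists moved together and the phases use different elements. Late cell cycle genes are controlled through CCAAT boxes and the CHR element, whereas G1/S genes are controlled through E2F sites. Searched on both strands of RefSeq promoters (GRCm38.p6, 250 bases before to 50 after the start), the CHR letters TTTGAA were in 72.5% and CCAAT in 75% of 40 promoters of 38 G2/M list genes, and both were in 65.0%. The G1/S list, with 46 promoters of 37 genes, held TTTGAA in 13% and CCAAT in 56.5%. The E2F letters TTTCCCGC or TTTGGCGC were in 28.3% of the G1/S promoters and in 0 of 40 G2/M promoters. Over all 32841 promoters, the shares were 17.9% for TTTGAA, 37.4% for CCAAT, 6.95% for both and 1.57% for either E2F motif. A match is a description of the letters and not of a bound site. The 200 bases before the start follow for Ccnf, Cdk1 and Top2a of the G2/M list, and for Cdc6 of the G1/S list, with matches in capitals and the strand of the gene.
Ccnf, chr17:24251410-24251609, minus strand: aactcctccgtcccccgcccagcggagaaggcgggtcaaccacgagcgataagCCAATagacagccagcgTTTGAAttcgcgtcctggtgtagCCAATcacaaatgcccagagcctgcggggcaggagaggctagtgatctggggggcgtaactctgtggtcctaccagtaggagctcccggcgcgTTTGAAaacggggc
Cdk1, chr10:69352913-69353112, minus strand: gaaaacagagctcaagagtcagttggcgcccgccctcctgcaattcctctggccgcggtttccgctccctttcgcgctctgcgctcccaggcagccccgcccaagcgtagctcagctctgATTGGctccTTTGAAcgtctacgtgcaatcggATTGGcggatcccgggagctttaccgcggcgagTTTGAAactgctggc
Top2a, chr11:99024190-99024389, minus strand: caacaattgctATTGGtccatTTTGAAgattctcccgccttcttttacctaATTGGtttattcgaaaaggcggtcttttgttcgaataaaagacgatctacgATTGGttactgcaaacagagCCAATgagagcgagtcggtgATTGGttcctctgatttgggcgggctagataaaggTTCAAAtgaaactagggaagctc
Cdc6, chr11:98907951-98908150, plus strand: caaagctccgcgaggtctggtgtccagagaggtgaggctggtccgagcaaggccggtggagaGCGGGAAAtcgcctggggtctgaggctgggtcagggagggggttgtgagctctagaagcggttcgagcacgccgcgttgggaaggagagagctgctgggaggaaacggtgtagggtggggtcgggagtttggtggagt
Cdk1 and Top2a are key genes of their list, and Ccnf and Cdc6 were chosen after their values and motifs were seen, as strong risers. No matches share letters in these stretches. The Ccnf stretch holds CCAAT at 147 and 107 and TTTGAA at 130 and 14 bases before the start, and Cdk1 holds CCAAT at 80 and 48 (reverse strand) and TTTGAA at 71 and 15. In Cdc6 the E2F letters lie 138 bases before the start on the reverse strand. Not every key gene had the letters of its phase. Mcm2, Pcna and Rrm2 of the G1/S list held CCAAT and no E2F letters, and Mcm2 also held TTTGAA. Of the G2/M list, Ccnb1 held CCAAT without TTTGAA, whereas Mki67 held both. Cdc6 (log2 fold change 4.42) was not the strongest riser of its list, where Uhrf1 (4.997), Chaf1a (4.75) and Rrm2 (4.58) rose more.

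Among mitotic genes, Mki67, the Ki-67 antigen of cycling cells, had 16.5, 10.9 and 4.002 CPM pre-tx and 213, 70.1 and 67.7 CPM post-tx, with post-tx 1 the highest by far and no overlap between the groups (log2 fold change 3.48 ± 0.72 SE, adjusted p = 0.00596). Mybl2, a subunit of the complex that binds CHR elements, had 0.499, 2.65 and 0.672 CPM pre-tx and 129, 173 and 154 CPM post-tx (log2 fold change 6.89 ± 0.84 SE, adjusted p = 0.000134). Ccnf, encoding cyclin F, had 1.13, 2.81 and 2.56 CPM pre-tx and 181, 178 and 185 CPM post-tx (log2 fold change 6.38 ± 0.68 SE, adjusted p = 4.5e-05), and Plk1, a kinase of mitotic entry, had 8.93, 0.663 and 2.27 CPM pre-tx and 172, 187 and 193 CPM post-tx (log2 fold change 5.55 ± 1.00 SE, adjusted p = 0.00242). Cdk1, the mitotic kinase, had 15.7, 12.8 and 7.17 CPM pre-tx and 96.6, 120.4 and 92.8 CPM post-tx, its cyclin Ccnb1 had 24.8, 19.1 and 6.47 CPM pre-tx and 193, 210.2 and 127 CPM post-tx and Top2a, which untangles chromosomes, had 17.7, 12.5 and 4.99 CPM pre-tx and 184, 99.5 and 64.8 CPM post-tx. Their log2 fold changes were 3.12 ± 0.52, 3.40 ± 0.53 and 3.31 ± 0.69, and no groups overlapped.

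Among replication genes, Uhrf1, which copies DNA methylation to the new strand, had 12.8, 9.01 and 12.1 CPM pre-tx and 377, 342 and 366 CPM post-tx (log2 fold change 4.997 ± 0.54 SE, adjusted p = 4.97e-05). Chaf1a, which loads histones behind the fork, had 4.53, 2.42 and 0.928 CPM pre-tx and 58.5, 72.5 and 80.0 CPM post-tx (log2 fold change 4.75 ± 0.75 SE, adjusted p = 0.00104), and Rrm2, the ribonucleotide reductase subunit that makes deoxynucleotides, had 23.02, 10.5 and 9.80 CPM pre-tx and 393, 428 and 211 CPM post-tx (log2 fold change 4.58 ± 0.48 SE, adjusted p = 3.91e-05). Mcm2, part of the replicative helicase, had 96.1, 49.9 and 54.0 CPM pre-tx and 547, 549 and 506 CPM post-tx (log2 fold change 3.00 ± 0.48 SE, adjusted p = 0.00104). Pcna, the sliding clamp, was higher in each post-tx library (154, 138 and 139 CPM pre-tx and 299, 320.1 and 220.5 CPM post-tx) without passing the test (log2 fold change 0.96 ± 0.52 SE, adjusted p = 0.196). Cdc6, which licenses replication origins and was named here for its promoter after its values were seen, had 7.796, 7.06 and 0.480 CPM pre-tx and 125, 114 and 87.7 CPM post-tx (log2 fold change 4.42).

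Of 19 cell cycle inhibitors and quiescence genes, 3 rose and the other 16 were not called, against 8.7% higher among all tested genes. Cdkn1a, encoding p21, had 0.816, 1.52 and 1.82 CPM pre-tx and 24.0, 21.2 and 19.6 CPM post-tx (log2 fold change 3.95 ± 0.88 SE, adjusted p = 0.009). The other 2 were Cdkn2b, at 0 in all pre-tx libraries and 4.94, 3.64 and 3.18 CPM post-tx (at least 28.8-fold higher against the floor of 3 counts per library), and Cdkn2a (0, 0.0390 and 0 CPM pre-tx and 1.65, 1.36 and 0.847 CPM post-tx, at least 9.45-fold higher), both named after their values were seen, because the count was small. No call was made for Cdkn2a without pre-tx 1 or 3 (adjusted p up to 0.0752). Cdkn1b, encoding p27, was lower in each post-tx library without passing the test (15.0, 13.4 and 12.2 CPM pre-tx and 7.00, 7.99 and 5.02 CPM post-tx, adjusted p = 0.205).

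**Figure D4:**
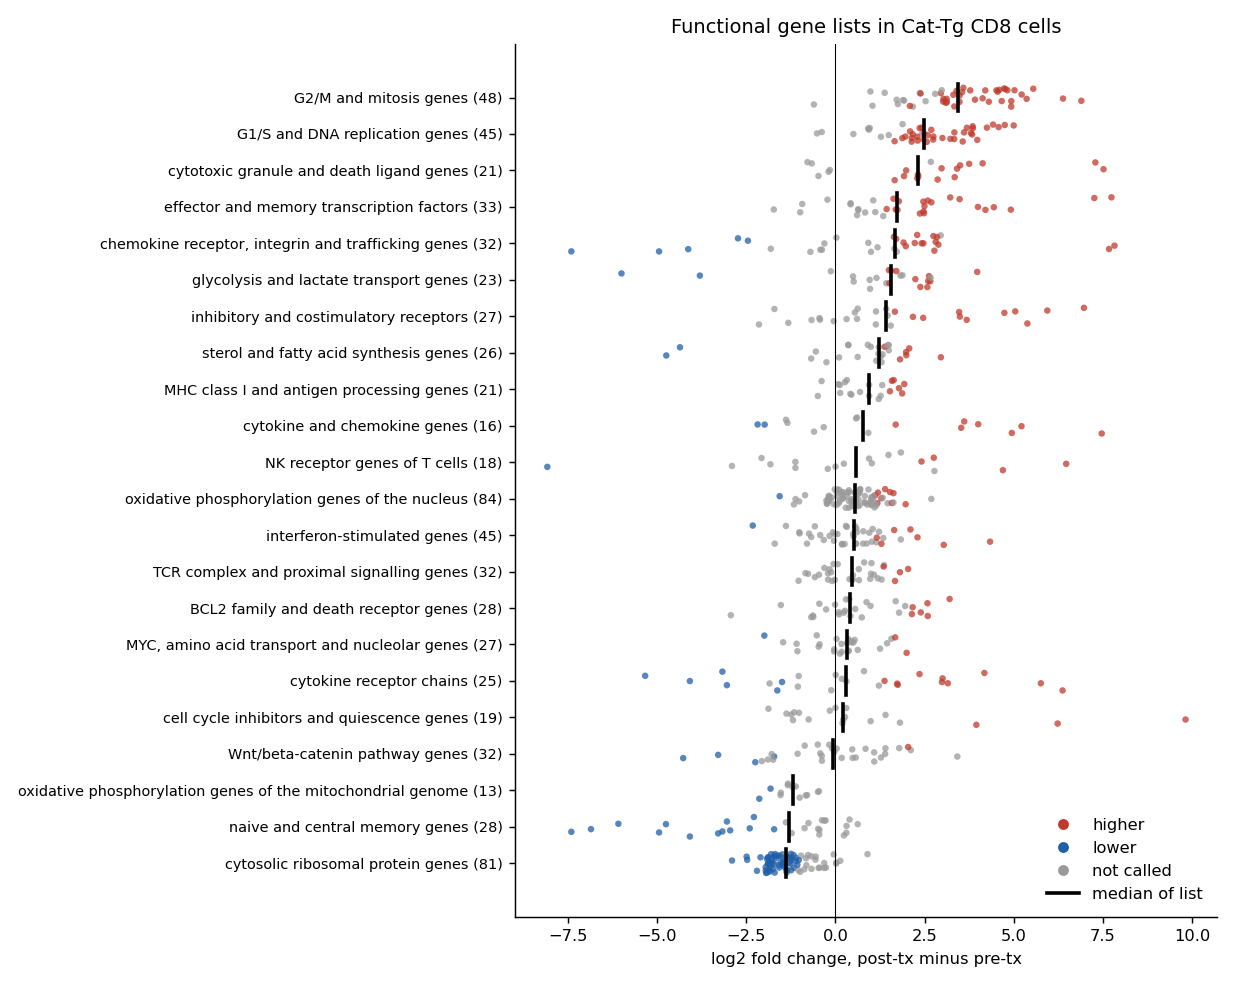
Log2 fold change post-tx minus pre-tx (horizontal axis) of each tested gene on 22 functional lists (rows, with the number tested), ordered by the median of the list (black bar). Red points are called higher, blue points lower and grey points not called. The G2/M, G1/S and cytotoxic lists lie to the right, and the naive and ribosomal protein lists to the left.

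Of 23 glycolysis and lactate transport genes, 11 rose and 2 fell, against 8.7% and 5.22% of all tested genes (median 1.57). Slc16a3, the lactate exporter MCT4, had 0.363, 2.77 and 1.99 CPM pre-tx and 18.3, 26.8 and 35.9 CPM post-tx (log2 fold change 3.97 ± 0.74 SE, adjusted p = 0.00306). The glucose transporter Slc2a3 had 32.8, 35.7 and 35.9 CPM pre-tx and 226, 246 and 188 CPM post-tx (log2 fold change 2.66 ± 0.35 SE, adjusted p = 0.000246). Its relative Slc2a1 had 19.1, 19.97 and 17.2 CPM pre-tx and 115, 92.6 and 86.0 CPM post-tx (log2 fold change 2.38 ± 0.51 SE, adjusted p = 0.00709). Pfkp, a phosphofructokinase that commits glucose to glycolysis, had 246, 117 and 157 CPM pre-tx and 1066, 1152 and 986 CPM post-tx (log2 fold change 2.62 ± 0.37 SE, adjusted p = 0.000414), and Hk2, a hexokinase, had 1.04, 2.15 and 2.15 CPM pre-tx and 10.98, 15.2 and 6.30 CPM post-tx (adjusted p = 0.0405). Ldha was separated without passing the test (1970.3, 1038 and 2154 CPM pre-tx and 3131, 3308 and 3698 CPM post-tx, adjusted p = 0.0587). Pdk1, which holds pyruvate back from the mitochondrion, fell (301, 169 and 407 CPM pre-tx and 16.6, 31.4 and 15.1 CPM post-tx; log2 fold change -3.80 ± 0.57 SE, adjusted p = 0.000615). The other fall was Ldhb (2.04, 5.15 and 17.99 CPM pre-tx and 0, 0.357 and 0.0303 CPM post-tx), named after its values were seen, because the count was small. The threshold was missed for Hk2 without any pre-tx library or post-tx 1 or 2 (adjusted p up to 0.139) and Ldhb without pre-tx 3 or post-tx 1 (adjusted p up to 0.0706), and 7 of the list rose without post-tx 1 or 2 or any pre-tx library.

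Of 84 oxidative phosphorylation genes of the nucleus, 9 rose and 1 fell, against 8.7% and 5.22% of all tested genes (median 0.54). Cox5a, a subunit of complex IV, had 113, 79.1 and 109.9 CPM pre-tx and 377, 432 and 375 CPM post-tx (log2 fold change 1.97 ± 0.34 SE, adjusted p = 0.00165). Cox5b, of the same complex, had 139, 98.0 and 153 CPM pre-tx and 399, 394 and 414 CPM post-tx (log2 fold change 1.63 ± 0.38 SE, adjusted p = 0.0114). Cox7a2l, which joins complexes III and IV, fell (533, 376 and 484 CPM pre-tx and 137, 191 and 145 CPM post-tx; log2 fold change -1.56 ± 0.36 SE, adjusted p = 0.0103). Atp5b was separated without a call (adjusted p = 0.0969). Of 13 mitochondrially encoded genes, 2 fell, against 5.22% of all tested genes (median -1.19). The complex IV subunit mt-Co1 had 8519, 11174 and 7339 CPM pre-tx and 1141, 1524 and 3508 CPM post-tx (log2 fold change -2.13 ± 0.63 SE, adjusted p = 0.0356). The complex I subunit mt-Nd5 had 423, 789 and 347 CPM pre-tx and 167, 123.02 and 153 CPM post-tx (log2 fold change -1.82 ± 0.54 SE, adjusted p = 0.0376). With offsets for transcript length and GC content, the median of this list was 0.89 and 4 of its genes were higher, so its direction depended on that setting. Without 1 library, at most 1 of the 13 fell and 1 to 6 of the nuclear genes rose. The call was lost for Cox5b without pre-tx 2 (adjusted p up to 0.0651), Cox7a2l without post-tx 1 (adjusted p up to 0.0567), mt-Co1 without any pre-tx library or post-tx 1 or 2 (adjusted p up to 0.138) and mt-Nd5 without pre-tx 1 or 2 or any post-tx library (adjusted p up to 0.145).

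Most cytosolic ribosomal protein genes fell. Of 81 tested, 57 were lower, against 5.22% of all tested genes, and the other 24 were not called (median -1.38). Without 1 library 31 to 51 were lower, with the fewest without post-tx 2. Rps27 had 3868, 5017 and 5286 CPM pre-tx and 667, 549 and 689 CPM post-tx (log2 fold change -2.90 ± 0.37 SE, adjusted p = 0.000169). Rps24 had 1440.0, 1963 and 1709.6 CPM pre-tx and 325, 313 and 275 CPM post-tx (log2 fold change -2.49 ± 0.52 SE, adjusted p = 0.00634). Rps7 had 2839, 3583 and 3502 CPM pre-tx and 518, 625 and 648 CPM post-tx (log2 fold change -2.47 ± 0.46 SE, adjusted p = 0.00305), with no overlap between the groups for any of the 3. Rps6, which is phosphorylated when growth is stimulated, had 3055, 3569 and 3725 CPM pre-tx and 1056, 1148 and 981 CPM post-tx (log2 fold change -1.70 ± 0.35 SE, adjusted p = 0.00547). Rpl10 overlapped between the groups (887, 692 and 882 CPM pre-tx and 840.3, 772 and 768 CPM post-tx, adjusted p = 0.917). With length and GC offsets, 49 were lower and 1 higher (median -1.21). Many ribosomal protein genes have near-identical pseudogenes, so their estimated counts are uncertain.

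Myc, a driver of growth in activated T cells, overlapped (72.7, 51.9 and 73.9 CPM pre-tx and 110.2, 64.9 and 49.6 CPM post-tx, adjusted p = 0.818), and of 27 genes of the MYC, amino acid transport and nucleolar list, 2 rose and 1 fell, against 8.7% and 5.22% of all tested genes (median 0.33, but -0.24 with length and GC offsets). Cad, the first enzyme of pyrimidine synthesis, had 72.1, 48.1 and 62.7 CPM pre-tx and 213, 263 and 254 CPM post-tx (log2 fold change 1.997 ± 0.57 SE, adjusted p = 0.0309), and Slc1a5, a glutamine transporter, had 104, 109.9 and 88.0 CPM pre-tx and 281, 359 and 325 CPM post-tx (log2 fold change 1.68 ± 0.45 SE, adjusted p = 0.0233). Gnl3, encoding nucleostemin, fell (39.5, 73.6 and 43.3 CPM pre-tx and 16.2, 16.1 and 7.05 CPM post-tx; log2 fold change -1.99 ± 0.63 SE, adjusted p = 0.0485). Slc7a5, the leucine transporter, was separated without a call (16.4, 19.4 and 30.5 CPM pre-tx and 47.3, 78.0 and 71.6 CPM post-tx, adjusted p = 0.0914). All 3 calls were lost with 1 library fewer. This was so for Cad without each library in turn (adjusted p up to 0.119), Gnl3 without each library in turn (adjusted p up to 0.155) and Slc1a5 without any pre-tx library or post-tx 1 or 2 (adjusted p up to 0.0822). With 1 library fewer, their log2 fold changes stayed at 1.827 to 2.086, -2.224 to -1.689 and 1.538 to 1.766. Under both settings with length and GC offsets the 3 calls were lost too. There the log2 fold changes went down to 0.92 for Cad and 0.58 for Slc1a5 (adjusted p up to 0.189 for Slc1a5).

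Of sterol and fatty acid synthesis genes, 6 of 26 rose and 2 fell, against 8.7% and 5.22% of all tested genes (median 1.21). Lss, lanosterol synthase, had 16.0, 20.8 and 7.01 CPM pre-tx and 56.2, 41.4 and 76.3 CPM post-tx (log2 fold change 1.99 ± 0.56 SE, adjusted p = 0.0288). Fasn, fatty acid synthase, had 53.6, 71.8 and 60.7 CPM pre-tx and 265, 236 and 234 CPM post-tx (log2 fold change 1.98 ± 0.48 SE, adjusted p = 0.0141). Both falls were steep: Scd1, which desaturates fatty acids, had 11.3, 11.7 and 5.44 CPM pre-tx and 0.0898, 0.390 and 0.575 CPM post-tx (log2 fold change -4.74 ± 0.65 SE, adjusted p = 0.000323), and Abca1, the cholesterol exporter, had 16.4, 13.03 and 7.94 CPM pre-tx and 0.120, 0.941 and 0.757 CPM post-tx (log2 fold change -4.35 ± 0.77 SE, adjusted p = 0.00211). Without 1 library, 1 (without pre-tx 3) to 4 of the list rose and both falls were called each time. No call was made for Lss without pre-tx 1 or 3 or any post-tx library (adjusted p up to 0.1) and Fasn without pre-tx 1 or 3 (adjusted p up to 0.0547). Both calls were also lost under both settings with length and GC offsets (Fasn log2 fold change down to 0.93, adjusted p up to 0.143).

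Interferon-stimulated genes rose in part, 7 of 45, and 1 was lower, against 8.7% and 5.22% of all tested genes. The median was 0.51. Oas3, a sensor of double-stranded RNA, had 10.1, 14.7 and 9.60 CPM pre-tx and 227, 218 and 248 CPM post-tx (log2 fold change 4.34 ± 0.70 SE, adjusted p = 0.00115). Ifitm3, which blocks virus entry, had 39.5, 13.5 and 5.06 CPM pre-tx and 142, 154 and 179.9 CPM post-tx (log2 fold change 3.04 ± 0.63 SE, adjusted p = 0.00599), and Dhx58 had 17.4, 7.33 and 13.7 CPM pre-tx and 58.8, 58.6 and 71.9 CPM post-tx (log2 fold change 2.30 ± 0.51 SE, adjusted p = 0.00887). Iigp1, a GTPase that interferon-γ induces, fell (15.7, 24.1 and 13.8 CPM pre-tx and 3.77, 3.02 and 3.995 CPM post-tx; log2 fold change -2.31 ± 0.61 SE, adjusted p = 0.0221). Isg15 and Gbp2 did not pass the test (adjusted p = 0.187 and 0.458). The list had 3 to 7 rises without 1 library, the fewest without post-tx 2, and the call was lost for Iigp1 without pre-tx 2 or post-tx 1 or 2 (adjusted p up to 0.0959).

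Of the MHC class I and antigen processing genes, 6 of 21 rose, against 8.7% of all tested genes, with the other 15 not called (median 0.95). Calr, the chaperone calreticulin, had 170.2, 103 and 149.7 CPM pre-tx and 613, 485 and 514 CPM post-tx (log2 fold change 1.93 ± 0.36 SE, adjusted p = 0.00312). Tap1, a subunit of the peptide transporter, had 279, 263 and 287 CPM pre-tx and 805, 1031 and 1018 CPM post-tx (log2 fold change 1.78 ± 0.53 SE, adjusted p = 0.0377), and the immunoproteasome subunit Psmb10 had 214, 164 and 211 CPM pre-tx and 739, 658 and 761 CPM post-tx. Psmb9, of the same particle, had 243, 169 and 268 CPM pre-tx and 669, 629 and 665 CPM post-tx. B2m, the light chain of MHC class I, was not called (1357, 1209.9 and 1326 CPM pre-tx and 1559, 1589 and 1542 CPM post-tx, adjusted p = 0.548). The threshold was missed for Tap1 without each library in turn (adjusted p up to 0.114), Psmb9 without any pre-tx library or post-tx 1 or 2 (adjusted p up to 0.0998) and Psmb10 without each library in turn (adjusted p up to 0.137), and 1 (without post-tx 1 or pre-tx 3) to 3 of the list rose without 1 library. Tap1 and Psmb9 also missed it under both settings with length and GC offsets. Over all settings their log2 fold changes went down to 0.59 and 0.88 (adjusted p up to 0.242 for Tap1). Genes of MHC class I are polymorphic between donor and host and near-identical to each other, so class I H2 genes are not named here.

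The Wnt/β-catenin list bears on the transgene. Ctnnb1, the endogenous β-catenin gene, had 92.7, 44.2 and 133 CPM pre-tx and 158, 152 and 65.2 CPM post-tx and overlapped (log2 fold change 0.47 ± 0.67 SE, adjusted p = 0.628). Its counts can include reads of the human transgene where the sequences match, and the 2 sources were not separated. Axin2, a direct target of β-catenin, was low and overlapped (1.36, 8.35 and 0.448 CPM pre-tx and 2.78, 1.95 and 2.48 CPM post-tx, adjusted p = 0.782). Of 32 tested genes, 1 rose (Ubash3b, given above) and 4 fell, against 8.7% and 5.22% of all tested genes, with a median of -0.061 (0.15 with the replicate block). Besides Tcf7 and Lef1, the falls were Bcl9, a cofactor of β-catenin (0.544, 6.67 and 7.65 CPM pre-tx and 0.209, 0.0974 and 0.454 CPM post-tx; log2 fold change -4.26 ± 1.196 SE, adjusted p = 0.0293), and Znrf3, which removes Wnt receptors (7.34, 12.3 and 9.09 CPM pre-tx and 2.12, 1.92 and 2.03 CPM post-tx; log2 fold change -2.24 ± 0.62 SE, adjusted p = 0.0265), both named after their values were seen, because the count was small. The call was lost for Bcl9 without pre-tx 2 or 3 or post-tx 1 or 2 (adjusted p up to 0.116) and Znrf3 without pre-tx 2 or 3 or post-tx 1 or 2 (adjusted p up to 0.0986).

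Of BCL2 family and death receptor genes, 6 of 28 rose, against 8.7% of all tested genes, and the other 22 were not called (median 0.41). Bcl2l11, encoding the pro-apoptotic BIM, had 21.1, 22.3 and 8.39 CPM pre-tx and 85.6, 88.1 and 58.6 CPM post-tx (log2 fold change 2.17 ± 0.48 SE, adjusted p = 0.00889), and Bak1, which permeabilises mitochondria, had 0.453, 1.599 and 1.86 CPM pre-tx and 11.6, 11.9 and 12.8 CPM post-tx (log2 fold change 3.20 ± 0.82 SE, adjusted p = 0.0193). Tnfrsf1b, a TNF receptor, had 91.1, 93.3 and 58.0 CPM pre-tx and 431, 546 and 474 CPM post-tx (log2 fold change 2.58 ± 0.50 SE, adjusted p = 0.00391). Mcl1 and Fas overlapped (adjusted p = 0.354 and 0.392). No call was made for Bak1 without pre-tx 1 or 2 or post-tx 2 (adjusted p up to 0.0675), and 3 of the list rose without post-tx 2 or pre-tx 1 or 2.

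The 22 functional lists held 707 distinct tested genes, of which 206 rose and 90 fell, against 8.7% and 5.22% of all tested genes. These lists were chosen with earlier results of these data known. A further 1183 rises and 744 falls lay outside them. By the rule of the 10 highest and 10 lowest protein-coding genes above 20 CPM in the higher group, 5 of the rises were outside the lists. Plekhf1, an endosomal protein gene, was at or under the floor of 3 counts in each pre-tx library (0.0453, 0.0390 and 0.0640 CPM pre-tx and 22.3, 33.4 and 38.4 CPM post-tx) and thus at least 231-fold higher post-tx. Adam8, a metalloprotease of activated leukocytes, had 0.997, 0.507 and 0.416 CPM pre-tx and 251, 216 and 258 CPM post-tx (log2 fold change 8.57 ± 0.76 SE, adjusted p = 9.7e-06). The mitotic kinase Nek2 had 0.227, 0.429 and 0.416 CPM pre-tx and 93.4, 140.4 and 77.0 CPM post-tx (log2 fold change 8.15 ± 1.27 SE, adjusted p = 0.000901) and the kinesin Kifc1 0, 0.234 and 0 CPM pre-tx and 28.5, 27.04 and 7.99 CPM post-tx (log2 fold change 8.02 ± 1.86 SE, adjusted p = 0.0112). Tns2, a tensin of focal adhesions, had 0.0453, 0.468 and 0.0320 CPM pre-tx and 31.1, 37.1 and 25.7 CPM post-tx (log2 fold change 7.40 ± 1.62 SE, adjusted p = 0.00824). The remaining 5 of the 10 were Itgax, Bhlhe40, Cx3cr1, Gzma and Csf1, given above. The threshold was missed for Kifc1 without pre-tx 3 (adjusted p up to 0.0525).

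Ccr7 was among the 10 steepest falls. The others were Y chromosome genes (Ddx3y, Eif2s3y and Srsy), digestive enzymes of the pancreas (Amy2a1, Pnlip and Cel), liver proteins (Alb and Apoa1) and the protease Prss12. Amy2a1 had 33.7, 34.0 and 29.7 CPM pre-tx and 0, 0 and 0 CPM post-tx and was at least 333-fold lower, although amylase genes are near-identical copies and reads can be split between them. Prss12 had 51.1, 37.6 and 43.8 CPM pre-tx and 0.0598, 0 and 0 CPM post-tx, at least 453-fold lower, and Pnlip 26.97, 26.9 and 36.0 CPM pre-tx and 0.0598, 0.0974 and 0.0605 CPM post-tx, at least 308-fold lower. Apoa1 was uneven pre-tx (56.8, 36.3 and 2.50 CPM pre-tx and 0.0299, 0.0974 and 0.121 CPM post-tx; log2 fold change -8.52 ± 2.02 SE, adjusted p = 0.0126), as was albumin. The call was lost for Apoa1 without post-tx 1 or 2 (adjusted p up to 0.0589) and Cel without pre-tx 2 or post-tx 1 or 2 (adjusted p up to 0.0937).

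The change in Cat-Tg CD8 cells was set against the change in Cat-Tg CD4 cells of the same transplants, to show where the subsets responded unequally. In a test of the difference over 16234 genes in the 12 Cat-Tg libraries, the CD8 change was higher than the CD4 change for 96 genes (0.591%) and lower for 193 (1.19%). With the replicate number as a block within each time point, as for subsets sorted from 1 animal, 59 were higher and 99 lower. With length and GC offsets, 185 were higher and 234 lower. Of the 96, 70 were themselves higher post-tx in CD8 cells, and of the 193, 63 were lower. The number called was 174 without CD8 post-tx 2, 177 and 183 without CD4 pre-tx 1 and 2, and 347 at most without 1 library. In the CD4 libraries, B cell transcripts summed to 3243 to 4704 CPM pre-tx and 2355 to 4435 CPM post-tx, above the CD8 libraries. Macrophage and monocyte transcripts summed there to 1826 to 2532 CPM pre-tx and 6203 to 7527 CPM post-tx. The CD8 libraries held 893, 720 and 336 CPM of these pre-tx and 271, 425 and 498 CPM post-tx. Dendritic cell sums in CD4 libraries were 2422 to 3906 CPM pre-tx and 4024 to 5966 CPM post-tx. Erythroid sums were 1336 to 2168 and 4043 to 25897 CPM. The part of these other cells in the differences was not tested.

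Several inhibitory and activation receptors had higher changes in CD8 cells: 7 of 27 genes on that list had a higher CD8 change (0.591% of all tested genes). Pdcd1 had 107, 81.3 and 79.2 CPM in the CD4 libraries pre-tx and 253, 279 and 281 CPM post-tx, so that its log2 fold change was 6.98 in CD8 and 1.604 in CD4 cells (difference 5.38, adjusted p = 3.56e-06). Lag3 differed by 4.11 (adjusted p = 0.000812), and Tnfrsf9 (4-1BB) and Cd160, chosen after their values were seen, by 3.73 and 3.25 (adjusted p = 0.000884 and 0.00072). Il2ra had 46.7, 48.1 and 37.0 CPM pre-tx and 43.3, 78.8 and 76.0 CPM post-tx in CD4 cells, where it was high from the start (difference 5.17, adjusted p = 0.00023). Zbtb32 rose by 7.23 in CD8 and 1.53 in CD4 cells (difference 5.70, adjusted p = 0.000219).

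Among cytotoxic genes, Gzmb rose in both subsets, by 7.28 and 6.23, and the difference of 1.05 ± 0.52 SE was not called (adjusted p = 0.399). Of 19 genes of the cytotoxic list tested, 4 had a higher change in CD8 cells and 1 a lower one, against 0.591% and 1.19% of all tested genes. The 4 were Gzma, Gzmk, Prf1 and Fasl, the last chosen after its values were seen. Their differences were 2.79, 3.08, 2.26 and 3.41 (adjusted p = 0.016, 0.00273, 0.00465 and 0.000812). Cx3cr1, Itgax and Klrg1 also had higher changes in CD8 cells, by 5.01, 4.35 and 3.98 (adjusted p = 0.00502, 0.000219 and 0.000867). Ifng and Tbx21 had differences of 2.05 and 1.12 that were not called (adjusted p = 0.272 and 0.127), nor was that of Mki67 (0.43 ± 0.71, adjusted p = 0.853).

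On the naive list, 5 of 28 genes had a change called lower in CD8 than in CD4 cells (1.19% of all tested genes). Bcl2 was one of these, with 52.3, 51.0 and 48.5 CPM pre-tx and 147, 121 and 134 CPM post-tx in CD4 cells and no call in CD8 cells. Ccr7 had 775, 678 and 861 CPM pre-tx and 52.6, 53.7 and 63.6 CPM post-tx in CD4 cells, a smaller fall than in CD8 cells (difference -3.61, adjusted p = 0.000812). The difference for Tcf7 of -1.11 was not called (adjusted p = 0.137). Itgae had 4.805, 5.29 and 7.94 CPM pre-tx and 14.1, 8.17 and 9.55 CPM post-tx in CD4 cells against a fall in CD8 cells (difference -4.95, adjusted p = 0.000167), and Ccr9, the gut-homing chemokine receptor, chosen after its values were seen, differed by -4.52 (adjusted p = 0.000219). Ifngr2 differed by -4.18 (adjusted p = 0.000812).

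Among interferon-stimulated genes, 8 of 45 had a change called lower in CD8 than in CD4 cells (1.19% of all tested genes), among them Gbp2, which was not called in CD8 cells. In the fit of the 12 Cat-Tg libraries, 26 of the list rose in CD4 cells (15.6% of all tested genes) and the list's log2 fold changes had a median of 1.52. That fit gave CD8 cells 10 rises (15.8% of all tested genes) and a median of 0.50. The part of macrophage and other non-T cell transcripts of the CD4 libraries in these differences was not tested. By the rule of the 5 largest differences each way, Plekhf1, Kifc1 (6.78), Zbtb32, Lat2, a signalling adaptor (5.64), and Irak3, an inhibitor of Toll-like receptor signalling (5.42), led the higher side. Amy2a1, Eng, encoding endoglin (-6.79), Arrdc4 (-5.51), Gpr141 (-5.43) and Nacc2 (-5.37) led the lower side. Eng went from 1.19, 0.356 and 2.89 CPM to 39.5, 12.2 and 9.21 CPM in CD4 cells and from 8.11, 14.8 and 15.2 CPM to 1.56, 2.43 and 0.847 CPM in CD8 cells. No call was made for Eng without pre-tx 2 or 3 or any post-tx library (adjusted p up to 0.109) and Kifc1 without pre-tx 3 (adjusted p up to 0.0525), for the CD8 change.

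**Figure D5:**
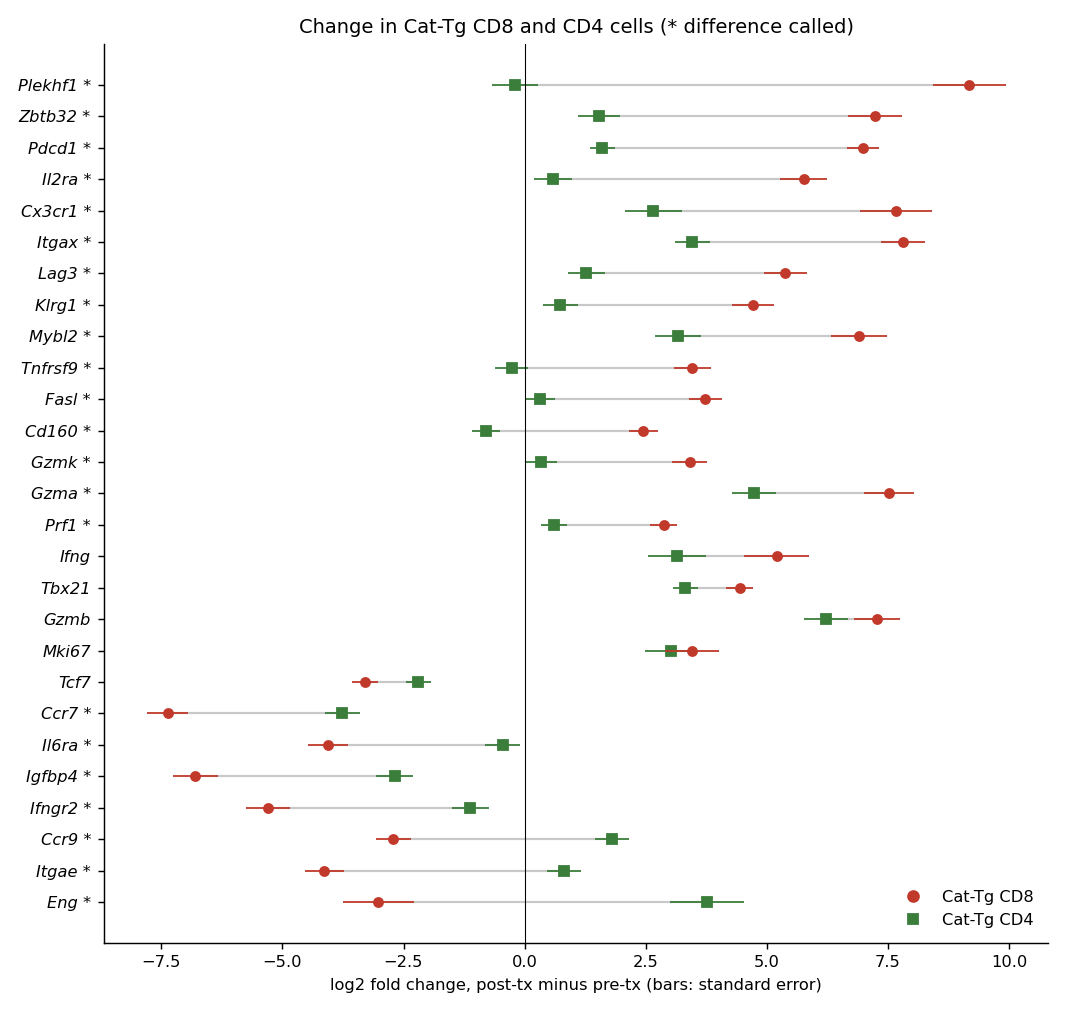
Log2 fold change post-tx minus pre-tx (horizontal axis, bars showing the standard error) of 27 genes in Cat-Tg CD8 (red circles) and Cat-Tg CD4 (green squares) libraries, 3 per group, from 1 fit of the 12 Cat-Tg libraries. Genes are ordered by the difference, an asterisk marks a called difference, and Tnfrsf9, Fasl, Cd160 and Ccr9 were chosen after their values were seen. Gzmb, Tbx21, Ifng, Mki67 and Tcf7 carry no asterisk, while Pdcd1 and Il2ra lie far apart.

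A comparison with WT CD8 cells is limited by the WT pre-tx libraries. The libraries labelled WT CD8 pre-tx held 75.1, 79.1 and 94.8 CPM of Cd4, 133, 79.0 and 133 CPM of Cd8a and B cell transcripts summing to 13473 to 19271 CPM, against 0.952, 3.55 and 0.576 CPM of Cd4 and 833, 481 and 766 CPM of Cd8a in the Cat-Tg pre-tx libraries. Y transcripts were low in both WT groups, with Ddx3y at 0.171, 0.382 and 0.324 CPM pre-tx and 0.0647, 0.414 and 0 CPM post-tx and sums of 4 male transcripts of 19.6 to 40.2 CPM pre-tx and 11.5 to 24.9 CPM post-tx. The genotype and these contents cannot be told apart in the difference of the changes, which was called higher for 946 genes (5.92%) and lower for 763 (4.78%), and for 993 and 1010 in all without Cat-Tg post-tx 1 and 2. In the post-tx libraries alone, Gzmb had 1403, 2709 and 1964 CPM in Cat-Tg and 3990.0, 1307 and 2215 CPM in WT cells, and the difference of the changes was -0.89 (adjusted p = 0.508). Gzmk had 266, 425 and 426 CPM in Cat-Tg and 929.9, 269 and 400.1 CPM in WT cells post-tx, with 33.5, 29.3 and 42.3 CPM and 0.256, 0.127 and 0.185 CPM pre-tx (difference -8.01, adjusted p = 6.51e-05). Itgax had 247, 315 and 256 CPM in Cat-Tg and 37.9, 97.4 and 69.7 CPM in WT cells post-tx. Its difference of the changes was 6.12 (adjusted p = 0.000184), which also draws on the pre-tx libraries. Dendritic cell list genes, Itgax among them, summed there to 18584.5 to 20520.4 CPM in WT and 1260, 535 and 645 CPM in Cat-Tg libraries.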

How the data were processed

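RNA of sorted cells was amplified with SMART-Seq HT and sequenced, and transcripts were quantified by the authors with kallisto 0.46.2. The deposited tables give estimated counts and TPM per transcript, as deposited by the authors. The labels name mm9, and the release of the index is not given in the sources used here, so 116374 of 117497 transcripts were matched by identifier to GENCODE M21 and no file coordinate was used. Estimated counts were summed to 35855 genes and rounded. Genes above 1 CPM in at least 3 of the 12 CD8 libraries were tested with the robust quasi-likelihood test of edgeR 4.0.16 after TMM, with 4 groups sharing 1 estimate of spread. A gene was called at a Benjamini-Hochberg adjusted p up to 0.05 with at least a 2-fold change. The difference from CD4 cells was an interaction term in the 12 Cat-Tg libraries, and that from WT cells in the 12 CD8 libraries. SE were log2 fold changes divided by the root of the F statistic. The test was checked on simulated counts. Alternatives used DESeq2 1.42.0, limma-voom 3.58.1, other filters, scalings and blocks, and each library left out. Members and lists were chosen with earlier results of these data known. Named were the markers and key genes, up to 3 called members at each end of each list above 10 CPM, the 10 genes at each end of all genes above 20 CPM, 5 at each end of each interaction, and any marker list member, except for some genes that are not reported here. Transcript shares are of TPM. Each library is 1 mouse, and no label says that the replicates share litters or batches.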

Additional observations from a re-analysis of the deposited data

Results flagged for a closer look

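Of the genes named by rule or by key role, 26 drew attention because the change in CD8 cells and the change in CD4 cells differed past the threshold in the test of the difference itself (edgeR). The values given are log2 fold changes in CD8 minus those in CD4 cells. The difference was positive for Plekhf1 (9.38), Kifc1 (6.78), Zbtb32 (5.70), Lat2 (5.64), Irak3 (5.42), Pdcd1 (5.38), Il2ra (5.17), Cx3cr1 (5.01), Itgax (4.35), Lag3 (4.11), Klrg1 (3.98), Gzmk (3.08), Gzma (2.79), Bhlhe40 (2.46), Ctla4 (2.37), Prf1 (2.26), Adam8 (2.13) and Cxcr3 (1.84). It was negative for Amy2a1 (-6.96), Eng (-6.79), Arrdc4 (-5.51), Gpr141 (-5.43), Nacc2 (-5.37), Ccr7 (-3.61), Gbp2 (-1.901) and Bcl2 (-1.87). The fitted values of Plekhf1 and Amy2a1, which had at most 3 counts in each library of one CD8 group, depend on the prior count added to each library and are not sizes of change. Lat2 fell by 3.36 in CD4 cells, while Bcl2, Gbp2, Gpr141, Eng and Nacc2 had CD4 log2 fold changes of 1.40, 2.38, 2.63, 3.77 and 1.00. Groups of 3 were too small for the search for single distant samples.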

How the results depend on the processing

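The number of genes called in Cat-Tg CD8 cells, 2223, stayed within 1.5 times under 11 of 13 other settings and was 3921 from the 6 libraries alone and 4255 with DESeq2. A similar number did not mean the same genes. With length and GC offsets, 1471 of 2203 calls were shared with the main fit in the same direction. With the replicate block and these offsets, 1338 of 1945 were shared. Leaving out 1 library gave 974 to 2545. The CD8 and CD4 difference, 289 genes, became 709 with DESeq2 and 158 with a replicate block per animal, and 174 to 347 without 1 library. The WT difference, 1709 genes, became 2870 with DESeq2 and 993 to 2511 without 1 library. The causes were not tested, except that leaving out a library leaves fewer samples. The log2 fold change of mt-Nd5, -1.82, reversed to 0.15 with length and GC offsets and to 0.035 with the replicate block and these offsets. The replicate block gave 1981 calls (1260 higher, 721 lower) in the CD8 comparison, 217 in the CD4 difference and 1518 in the WT difference. Same-numbered pre-tx and post-tx libraries did not deviate together (r = 0.0654, -0.252 and -0.15), nor did same-numbered CD8 and CD4 libraries (r from -0.164 to 0.0584), so the numbers were not taken as pairs. Of 137 named and called genes, 88 were called under all settings, 91 under each omission of a library and 104 under every setting that kept all libraries. Besides genes given above, Bak1, C1qc, Foxp3, Iigp1, S100a8, S100a9, Xcl1 and mt-Co1 lost their calls under both settings with length and GC offsets. The median of all genes ran from -0.62 with no filter to -0.021 with a minimum of 10 counts, so the sign of small log2 fold changes depended on the filter. The smallest depth, 22263193 counts, put the floor of 3 counts at 0.136 CPM for the pre-tx group (0.0974 post-tx), below which a level was not detectable.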

Other observations

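The use of T cell receptor β variable genes varied more between libraries after transplant. Among 18 Trbv genes that made up at least 1% of Trbv counts, the SD over the 3 libraries was larger post-tx for 17. The median SD of the shares was 0.313 percentage points pre-tx and 2.02 post-tx, and the highest was 1.09 pre-tx and 6.84 post-tx. Trbv1 held 8.02%, 6.88% and 7.9% pre-tx and 19.8%, 6.57% and 10.1% post-tx. Trbv16 held 14.7%, 13.7% and 15% pre-tx and 7.84%, 20.5% and 14.6% post-tx. For the α chain, of 63 Trav genes of at least 1% in some library, 42 had a larger SD post-tx. The median SD was 0.299 percentage points pre-tx and 0.541 post-tx. Some of the 63 reached 1% only post-tx, such as Trav7-2, which favours a larger SD post-tx, and others only pre-tx, such as Trav2. Some are near-identical copies with equal shares, such as Trav12d-2 and Trav12n-2, and count more than once, so no conclusion is drawn from the number 42. No test was run, since the genes share a total. The shares rested on the short reads that kallisto assigned among similar V genes.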
